A study of Mus musculus with 6 samples.

Results

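The genes described here form the switch that lets a cell leave G1: the D cyclins CCND1, CCND2 and CCND3, their kinases CDK4 and CDK6, the inhibitors CDKN1A (p21), CDKN1B (p27), CDKN2C (p18) and CDKN2D (p19), and RB1. They were chosen by name, 10 genes in all, each to be read by its brightest probe set with a single gene symbol. A probe set of that kind was found for 9 of the 10, among 18417 genes named in this way, and each of the 9 had 1 such probe set. CDKN2C was not analysed here. Expression was measured in tumours of SK-N-BE(2), an established human neuroblastoma line with amplified MYCN, grown after injection into the adrenal of mice of the NSG strain, which lacks T, B and natural killer cells. The 3 treated mice received BL-8040, which blocks CXCR4, a chemokine receptor on the tumour cells; dosing was subcutaneous at 400 µg, started on day 7 and ran for 14 days. The 3 control mice carried the same tumour in the same strain; the groups are those of the sample titles and descriptions, since the treatment text of the labels names BL-8040 dosing on the control samples too. The labels give neither a vehicle nor the age of any mouse. All tumours came from 1 cell line, so the arrays do not show the spread between tumours of different origin. Each array was taken as the tumour of 1 mouse, which the sample titles do not state.

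In early G1 a D cyclin binds CDK4 or CDK6, and the complex phosphorylates RB1, the retinoblastoma protein. Unphosphorylated RB1 holds the E2F transcription factors in check, and its phosphorylation frees them to switch on the genes of DNA synthesis. INK4 proteins such as p18 and p19 bind CDK4 and CDK6 directly, while the CIP/KIP proteins p21 and p27 bind the cyclin and kinase together and act most strongly on CDK2. In neuroblastoma, high CCND1 and CDK4 are common, MYCN raises many genes of this step, and CCND1 is a textbook target of the microRNAs miR-15a and miR-16. Much of the control of the switch lies in protein turnover and phosphorylation, which an array of transcripts does not read.

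None of the 9 genes passed the test. In limma, which was fitted to all named genes, 0 of 9 reached a Benjamini-Hochberg adjusted p under 0.05, where 0% of all genes did, and the smallest adjusted p among them was 0.644. The genes with the largest differences were the inhibitor gene CDKN2D, at 0.889 times the control level, and the cyclin gene CCND3, at 1.12-fold. CDK4 was the steadiest of the 9, at 0.999 times the control level. Of the 9 genes, 2 stood higher and 7 lower in treated tumours, and their median difference was -0.05 log2 units; over all genes 41.5% stood higher and the median was -0.02. An unadjusted p under 0.05 was reached by 1 of the 9, CDKN2D, against 7.72% of all genes (2.64% higher and 5.08% lower). The 3 treated values lay wholly to one side of the 3 control values in 2 of the 9, CCND3 (higher) and CDKN2D (lower), against 14.0% of all genes, 4.93% on the higher and 9.05% on the lower side.

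**Figure D1:**
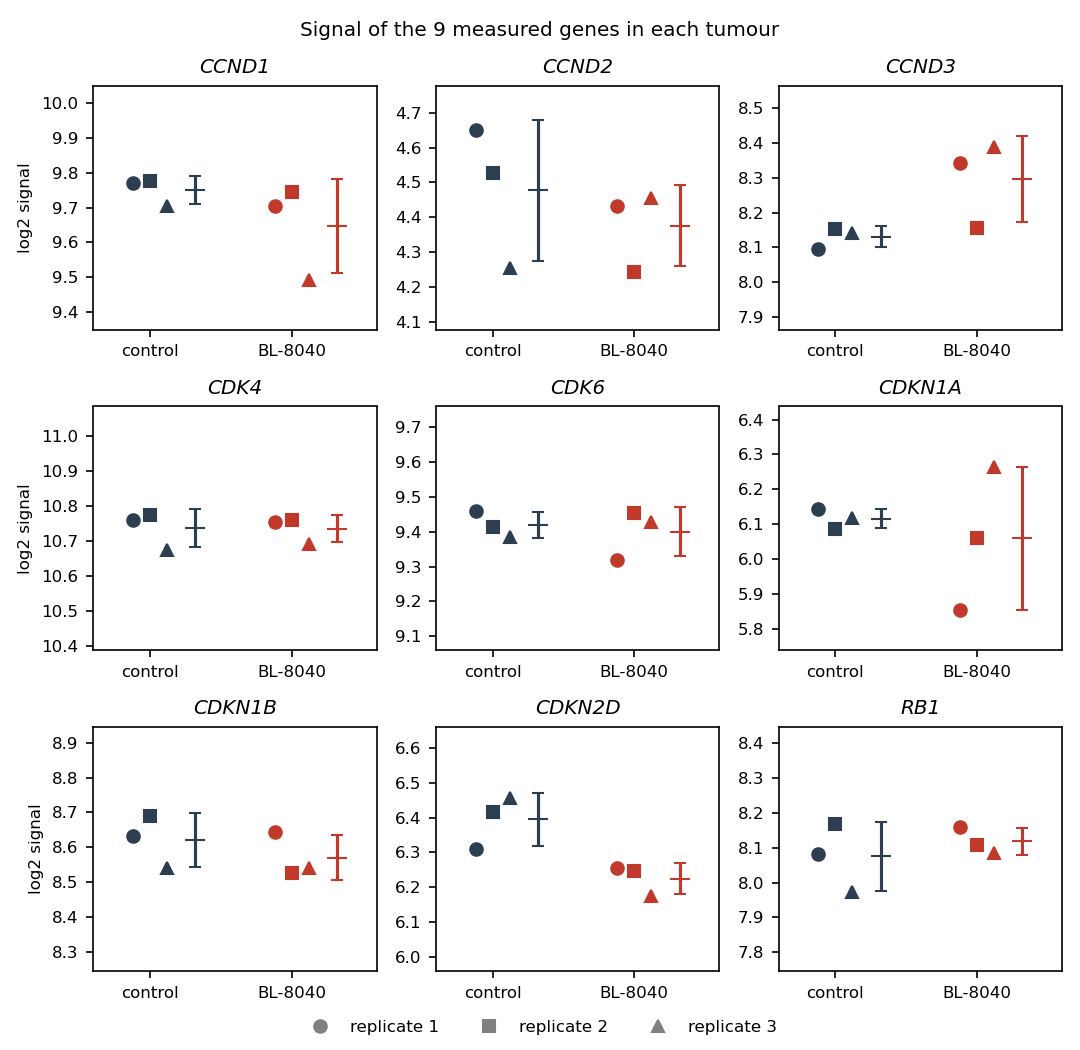
Log2 signal of each measured gene in the 3 control (dark) and 3 BL-8040 (red) tumours; marker shapes give the replicate number, bars the group mean and SD, and every panel spans 0.7 log2 units on an axis that does not start at 0. The groups overlap in all panels but CCND3, where the nearest values differ by 0.0015, and CDKN2D, where they differ by 0.06.

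The array reads human transcripts, and the labelled tumour type was checked first. All 8 measured markers of neuroblastoma cells had a mean signal above the median of all genes, from 7.30 for CHGA to 12.2 for MYCN (log2). Their mean over the list ran from 8.38 to 9.03 in the treated and from 8.86 to 9.18 in the control arrays, and 7 of the 8 stood lower after BL-8040. The median difference of the list was -0.23, beside -0.02 over all genes, and -0.12 without BL-8040 replicate 3. An unadjusted p under 0.05 (limma) was reached by 1 of the 8, lower, beside 5.08% of all genes in that direction. With the replicate number as a block it was reached by 5 of the 8, all lower, beside 1002 of 18417 genes in that direction. With 1 array left out it was reached by 0 of the 8 without BL-8040 replicate 3 or without control replicate 2. The highest such count was 3, all lower, without BL-8040 replicate 2 or without control replicate 3. Over all genes, the lower ones numbered 716 and 578 in the first 2 fits and 1015 and 664 in the others. The groups did not overlap in 2 of the 8, both lower (9.05% of all genes). Host cells are of mouse and the probe sets human, so signal of the host markers below cannot be assigned to host cells. Whether it came from the tumour cells was not tested. Of the host cell types the tumour could hold, 0 of 6 endothelial and 0 of 5 adrenal cortex markers were above the median signal, with ranges of the list mean from 4.41 to 4.63 and from 4.50 to 4.59, and from 4.42 to 4.63 and from 4.42 to 4.51, in treated and control arrays. For the 6 myeloid markers, 2 of them above the median signal, the list mean ran from 5.18 to 5.42 and from 5.17 to 5.30. All 6 fibroblast markers were bright, with list means from 8.99 to 9.33 and from 9.06 to 9.13. Of the host lists, 1 endothelial marker (PECAM1, lower) and 1 myeloid marker (LYZ, higher) had an unadjusted p under 0.05 (limma). Over all genes 5.08% were lower and 2.64% higher at that p. Both counts stayed at 1 with quantile normalization and fell to 0 with array weights. PECAM1 had 2 probe sets, and with their mean the endothelial count was 0. The groups did not overlap in 3 of the 6 endothelial markers, all lower (9.05% of all genes), and 1 of the 6 myeloid markers, higher (4.93%). PECAM1 and LYZ were named after their values were seen. The part of these shifts in the differences below was not tested, and in bulk tumours fewer cells of a type and less RNA per cell cannot be told apart. One array, BL-8040 replicate 3, stood apart from the others on the first principal component (-22.7, against -0.74 to 10.1).

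Among the D cyclins, CCND1 (cyclin D1) had a log2 signal of 9.71, 9.74 and 9.49 in BL-8040 replicates 1, 2 and 3 and of 9.77, 9.78 and 9.70 in the controls. The low value of BL-8040 replicate 3 set the treated mean; the other 2 treated tumours lay within the control range. The difference, BL-8040 minus control, was -0.10 ± 0.08 (SE) with a 95% interval from -0.29 to 0.09 and a limma adjusted p of 0.750. In linear terms the interval ran from 0.815 to 1.06 times the control level. The CCND1 difference shrank to -0.02 when BL-8040 replicate 3 was left out, and it was -0.15 when BL-8040 replicate 2 was.

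CCND2 (cyclin D2) had the dimmest probe set of the 9; it ranked at percentile 25.0 by mean signal. The CCND2 values were 4.43, 4.24 and 4.45 after BL-8040 and 4.65, 4.53 and 4.25 in the controls. The 2 lowest values, almost equal, came from 1 tumour of each group, so the groups overlapped. The difference of -0.10 ± 0.11 (SE) had a limma adjusted p of 0.814 and the widest interval of the 9 genes, from -0.35 to 0.15. It went to -0.01 without control replicate 1, to -0.03 without BL-8040 replicate 2 and to -0.21 without control replicate 3.

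CCND3 (cyclin D3) was the only D cyclin with all treated values above all controls, at 8.34, 8.16 and 8.39 against 8.10, 8.15 and 8.14. The separation was thin: the lowest treated value, that of BL-8040 replicate 2, exceeded the highest control by 0.0015 log2 units, or 0.516% of the range of the 6 values. The other 2 treated tumours lay well above every control. The group means were 8.30 ± 0.12 and 8.13 ± 0.03 (SD, n = 3 each), or 1.12-fold, and differed by 0.16 ± 0.08 (SE), with a 95% interval from -0.02 to 0.35 and a limma adjusted p of 0.651. The exact two-sided permutation p was 0.1, below which no comparison of 3 with 3 arrays can go. Leaving out single arrays gave CCND3 differences from 0.12, when BL-8040 replicate 3 was dropped, to 0.23, when BL-8040 replicate 2 was, with limma adjusted p from 0.584 to 0.896.

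The kinase genes had the narrowest ranges of the 9. CDK4 gave 10.76, 10.76 and 10.69 after BL-8040 and 10.76, 10.77 and 10.67 in the controls, a range of 0.0994 log2 units over all 6 tumours. The lowest value of each group came from a replicate 3, and the groups covered nearly the same range. Its SD over the 6 arrays, 0.0417, was at percentile 3.25 of all genes and at percentile 9.88 of the 10% of genes with the brightest probe sets, to which CDK4 belongs. The CDK4 difference was -0.00 ± 0.07 (SE), with a 95% interval from -0.16 to 0.16 (limma adjusted p = 0.997). The interval thus ran from 0.896 to 1.11 times the control level. Its sign was not fixed: it turned to 0.02 without BL-8040 replicate 3.

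CDK6, the second kinase of the D cyclins, gave 9.32, 9.45 and 9.43 after BL-8040 and 9.46, 9.41 and 9.38 in the controls. Only BL-8040 replicate 1 lay outside the control range, below it by more than 0.05. The difference was -0.02 ± 0.07 (SE), with an interval from -0.18 to 0.14 and a limma adjusted p of 0.949, and it turned to 0.02 without BL-8040 replicate 1. The SD of CDK6 over the 6 arrays was at percentile 6.64 of all genes and at percentile 17.2 of the same bright 10%.

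**Figure D2:**
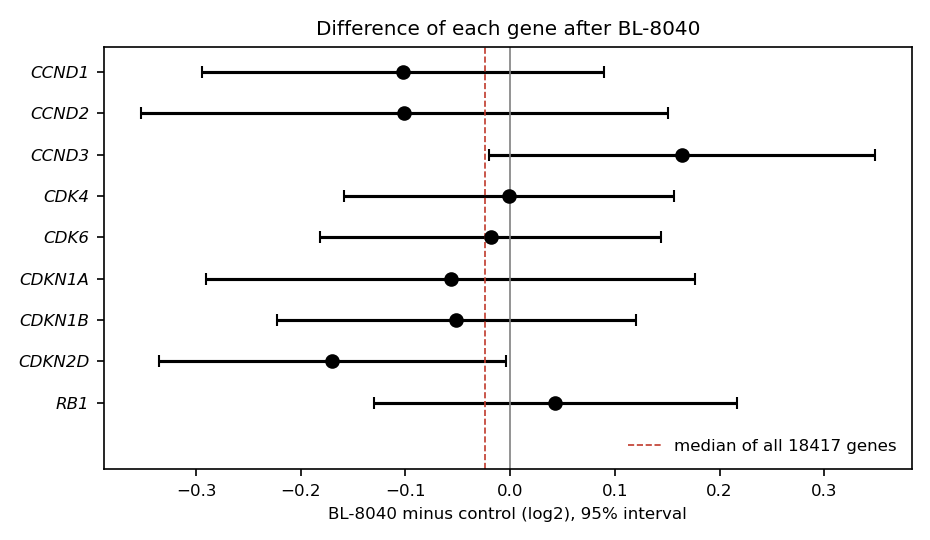
BL-8040 minus control in log2 units for each gene, with the 95% interval of limma (3 arrays a group); the dashed line is the median of all 18417 genes, -0.02. The intervals of 8 genes include 0, and that of CDKN2D ends at -0.0042, before adjustment for the number of genes tested.

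Among the inhibitors, CDKN2D, which encodes the INK4 protein p19, gave 6.25, 6.25 and 6.17 after BL-8040 and 6.31, 6.42 and 6.46 in the controls. All treated tumours were below all controls, with a gap of 0.06 log2 units, or 19.8% of the whole range. The means were 6.22 ± 0.04 and 6.39 ± 0.08 (SD, n = 3 each), and the difference was -0.17 ± 0.07 (SE) with a 95% interval from -0.34 to -0.0042. The unadjusted limma p was 0.0456, the adjusted p 0.644 and the exact two-sided permutation p 0.1. Leaving out 1 array kept the CDKN2D difference between -0.21 (without control replicate 1) and -0.14 (without control replicate 3), while the unadjusted p lay between 0.0286 and 0.124. By mean signal CDKN2D ranked at percentile 54.3.

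CDKN1A encodes p21, the inhibitor that p53 induces. Its values were 5.85, 6.06 and 6.26 after BL-8040 and 6.14, 6.09 and 6.12 in the controls. The treated tumours spread to both sides of the controls: BL-8040 replicate 1 was the lowest and BL-8040 replicate 3 the highest of the 6, so that the SD was 0.20 in the treated and 0.03 in the control group. The difference of -0.06 ± 0.10 (SE) had an interval from -0.29 to 0.18 and a limma adjusted p of 0.887. It was -0.16 without BL-8040 replicate 3 and turned to 0.05 without BL-8040 replicate 1. Whether the spread itself differed between the groups was not tested.

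CDKN1B encodes p27, which is held down in many tumours by faster degradation and not by its transcript. It gave 8.64, 8.53 and 8.54 after BL-8040 and 8.63, 8.69 and 8.54 in the controls. The values of control replicate 3 and BL-8040 replicate 3 were almost equal, and the groups overlapped. The CDKN1B difference was -0.05 ± 0.08 (SE), with an interval from -0.22 to 0.12 and a limma adjusted p of 0.866. It was -0.016 without control replicate 2 and -0.092 without control replicate 3.

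RB1 itself, the substrate on which the switch acts, gave 8.16, 8.11 and 8.09 after BL-8040 and 8.08, 8.17 and 7.97 in the controls. The treated values lay inside the control range, which was wider (SD 0.10 in the control group against 0.04). The difference of 0.04 ± 0.08 (SE) had an interval from -0.13 to 0.22 (limma adjusted p = 0.885), which runs from 0.914 to 1.16 times the control level. It was 0.09 without control replicate 2 and turned to -0.01 without control replicate 3.

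**Figure D3:**
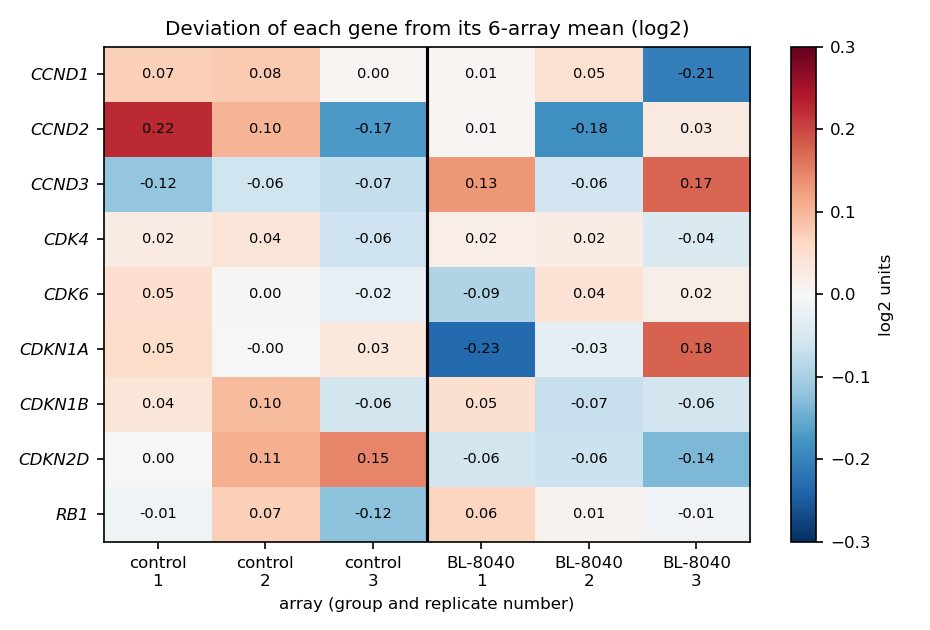
Deviation of each gene from its own mean over the 6 arrays, in log2 units, by array; red is higher and blue lower. CDK4 and CDK6 stay between -0.09 and 0.05 in every array, whereas CCND1 has its lowest cell (-0.21) and CDKN1A its highest (0.18) in BL-8040 replicate 3.

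The genes did not move as a block from tumour to tumour. BL-8040 replicate 3 held the lowest value of CCND1 and CDKN2D and the highest of CCND3 and CDKN1A, and control replicate 2 held the highest value of CCND1, CDK4, CDKN1B and RB1. Across the 6 arrays, 36 pairs of the 9 genes were correlated. The strongest negative pair was CCND1 with CCND3 (Pearson r = -0.80, exact permutation p = 0.0319; Spearman rho = -0.54, exact permutation p = 0.297). The strongest positive pair was CDK4 with RB1 (Pearson r = 0.81, exact permutation p = 0.0472; Spearman rho = 0.60, exact permutation p = 0.242). By rank, the closest pair was CCND1 with CDK4 (Spearman rho = 0.94, exact permutation p = 0.0167; Pearson r = 0.67, exact permutation p = 0.0847). Adjusted over the 36 pairs after Benjamini and Hochberg, the smallest exact permutation p was 0.736 for r and 0.600 for rho. Without the 2 arrays farthest from the median of the first gene, r was -0.64 for CCND1 with CCND3, 0.38 for CDK4 with RB1 and 0.61 for CCND1 with CDK4.

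For CCND1, CDKN1A and RB1 the genes with the most alike pattern over the 6 arrays were taken from those at or above the median signal, 9208 in each case. The closest to CCND1 were OGFRL1 (r = 0.998, rho = 1), the ribosomal protein gene RPS15A (r = 0.998, rho = 0.94) and DPCD (r = 0.997, rho = 0.94). In all, 301 genes had an r over 0.95 with CCND1, against 6 with CDKN1A and 24 with RB1. The closest to CDKN1A was SPSB2 (r = 0.983, rho = 1), followed by MRPL36 (r = 0.975, rho = 0.60) and HAPSTR1 (r = 0.973, rho = 0.83). The closest to RB1 were UROS (r = 0.983, rho = 0.94), CHMP5 (r = 0.982, rho = 0.94) and BANP (r = 0.980, rho = 0.77). These genes were picked as the highest of many over only 6 arrays, so the values describe and test nothing.

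The other genes around the switch were read from 8 lists, 70 measured genes of 72 listed. Over these, 43 stood higher and 27 lower in treated tumours, the median difference was 0.04 beside -0.02 over all genes, and 0 of 70 passed the test in limma. An unadjusted p under 0.05 was reached by 3 higher and 1 lower gene, 5.71% of the 70 against 7.72% of all genes. The groups did not overlap in 8 of the 70, all of them higher, or 11.4% against 14.0% of all genes in either direction and 4.93% in the higher direction.

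**Figure D4:**
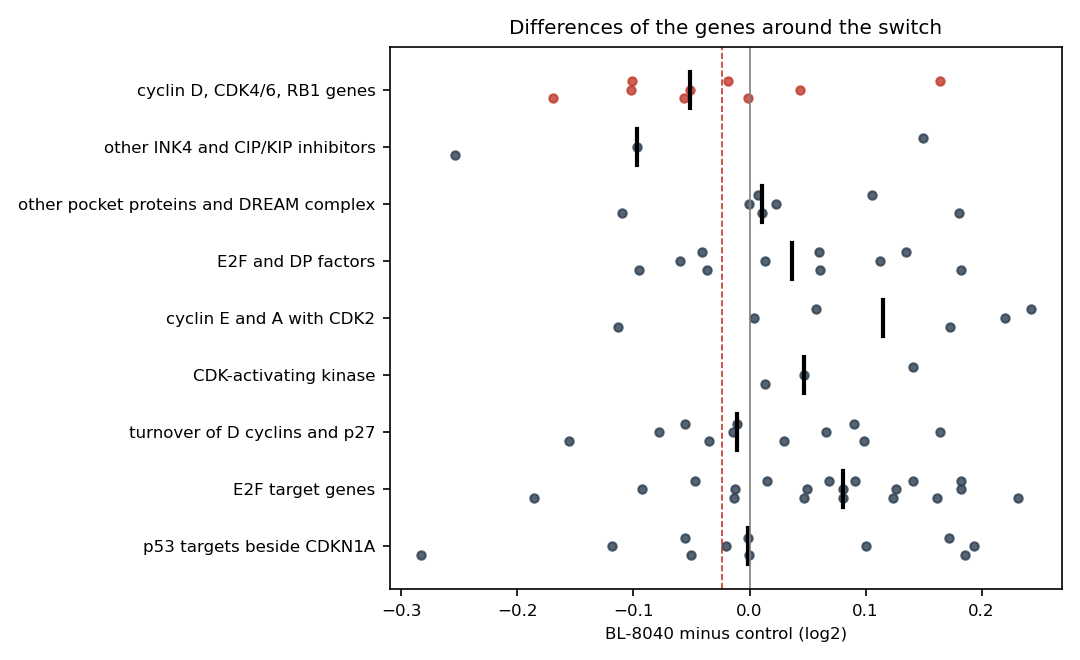
BL-8040 minus control (log2) of each gene, one dot per gene, by list; black bars are list medians and the dashed line is the median of all genes, -0.02. The list medians lie between -0.10 (other INK4 and CIP/KIP inhibitors) and 0.12 (cyclin E and A with CDK2), and no dot passed the test.

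The remaining inhibitors were measured as well. CDKN1C, which encodes p57, gave 7.07, 7.36 and 7.08 after BL-8040 and 7.34, 7.54 and 7.40 in the controls. BL-8040 replicate 2 lay just above the lowest control and the other 2 treated tumours below all of them. The CDKN1C level was 0.839 times that of controls (difference -0.25 ± 0.10 SE, unadjusted p = 0.0310, limma adjusted p = 0.644). CDKN2A, the INK4A and ARF gene, was 7.22 ± 0.16 against 7.07 ± 0.07 (SD, n = 3 each) and differed by 0.15 (limma adjusted p = 0.689), but by 0.06 without BL-8040 replicate 3. CDKN2B, which encodes p15, differed by -0.10 (limma adjusted p = 0.818), by -0.023 without BL-8040 replicate 1 and by -0.20 without control replicate 1. Of these 3 inhibitor genes, 1 stood higher and 2 lower.

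Downstream of RB1 lie the E2F factors and their DP partners, of which 6 stood higher and 4 lower, with a median difference of 0.04. E2F3, an activator of transcription, differed by 0.18 and E2F7, a repressor, by 0.11, with limma adjusted p of 0.676 and 0.683. The E2F7 values were 6.86, 6.81 and 6.77 after BL-8040 and 6.72, 6.70 and 6.69 in the controls, so the groups did not overlap. E2F4, a partner of the RB1 relatives in resting cells, differed by -0.10, which went to -0.038 without BL-8040 replicate 3 and to -0.16 without control replicate 3. E2F5 differed by -0.06, which turned to 0.01 without BL-8040 replicate 3. E2F1, named here after its values were seen, differed by 0.01. Of the pocket protein and DREAM complex genes, which hold cell cycle genes silent in resting cells, 5 stood higher and 2 lower. RBL1 (p107) differed by 0.18, LIN9 by 0.11, LIN37 by -0.11 and RBBP4 by -0.0001, with limma adjusted p of 0.658 or more. LIN9 went to -0.00 without control replicate 3.

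Cyclin E with CDK2 completes the phosphorylation that the D cyclins begin. Of the 6 genes of cyclins E and A, CDK2 and its activating phosphatase, 5 stood higher with a median difference of 0.12, and 2, both higher, had an unadjusted p under 0.05 (limma), beside 2.64% of all genes in that direction. CCNE2 (cyclin E2) gave 6.43, 6.41 and 6.32 after BL-8040 and 6.19, 6.33 and 5.98 in the controls. Its highest control lay between the treated values, and control replicate 3 was the lowest of all. The difference was 0.22 ± 0.10 (SE; unadjusted p = 0.0479, limma adjusted p = 0.644) and went to 0.13 without control replicate 3. CDC25A, the phosphatase that activates CDK2, differed by 0.24 ± 0.10 (SE; unadjusted p = 0.0347, limma adjusted p = 0.644). CCNA1, the dim germline cyclin A gene, differed by -0.11. Without control replicate 3 the list split into 3 higher and 3 lower genes, with a median of 0.03. In that fit 0 of 6 had an unadjusted p under 0.05 (limma). Over all 18417 genes the count also fell, from 1422 to 1019.

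Of 19 genes that E2F switches on, 14 stood higher, and the median difference was 0.08. Much of this list belongs to the DNA replication genes whose shift was known from earlier results of these arrays, so the count is no independent support. The groups did not overlap in 5 of the 19, all higher, or 26.3% beside 4.93% of all genes in that direction. RRM2, a ribonucleotide reductase subunit, had the smallest p of the 70 genes (difference 0.23 ± 0.07 SE, unadjusted p = 0.00984, limma adjusted p = 0.644). PCNA, the sliding clamp of DNA polymerase, gave 8.12, 8.03 and 7.89 after BL-8040 and 7.95, 7.81 and 7.73 in the controls, with a difference of 0.18 (limma adjusted p = 0.649). On the other side, CDT1, which licenses replication origins, differed by -0.19 and went to -0.08 without BL-8040 replicate 3. The uracil glycosylase gene UNG differed by -0.09. With 1 array left out, between 13 and 17 of the 19 stood higher, and the median difference lay between 0.05 (without control replicate 3) and 0.12 (without control replicate 1).

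The CDK-activating kinase, made of CDK7, CCNH and MNAT1, phosphorylates the CDKs on their activation loop. CCNH, its cyclin, gave 6.55, 6.63 and 6.58 after BL-8040 and 6.49, 6.43 and 6.42 in the controls. The groups did not overlap, and the CCNH difference was 0.14 ± 0.07 (SE; limma adjusted p = 0.647). MNAT1 differed by 0.05 and CDK7 by 0.01. Of 11 genes listed for the turnover of D cyclins and p27, 5 stood higher and 6 lower. DTL, kept in this list although it is the adaptor that marks p21 and CDT1 for degradation, differed by 0.16 and SKP1 by 0.09. FBXO31, an F-box protein that targets cyclin D1, differed by -0.16 and FBXO4 by -0.08, with limma adjusted p of 0.647 or more in all 4. FBXO31 was 7.49, 7.45 and 7.01 in the treated tumours and 7.43, 7.52 and 7.45 in the controls. Its difference was -0.0021 when BL-8040 replicate 3 was left out.

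The p53 targets beside CDKN1A were read because p21 is induced by p53. Of 11 measured genes, 4 stood higher and 7 lower, with a median difference of -0.0016. The groups separated in 0 of them, beside 14.0% of all genes, and a list of 11 is too short to tell these apart. TIGAR, a regulator of sugar metabolism, differed by 0.19 and SESN1, a stress protein, by 0.19, with limma adjusted p of 0.646 each. SESN1 went to 0.11 without control replicate 3. BBC3, which encodes the cell death inducer PUMA, differed by -0.12 and GDF15, a secreted stress factor, by -0.28 (limma adjusted p = 0.707 and 0.755). The GDF15 values were 6.37, 6.85 and 6.29 after BL-8040 and 6.27, 7.30 and 6.79 in the controls, and when control replicate 2 was left out the difference was -0.03. Without BL-8040 replicate 3 the split of the list became 7 higher and 4 lower.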

How the data were processed

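RNA of 6 tumours was hybridised to the Affymetrix Human Gene 1.0 ST array, per the series' design text, and extracted with Trizol, per the labels' protocols. The authors deposited 1 table of log2 values; the log2 scale was read from the values (1.08 to 13.2). Per the submitters' processing notes the software was Partek 6.6; which background correction and normalization it ran is not stated in the labels or the table, and no detection calls were used. The labels name the host, mouse, as organism. The sequence tables at hand were those of mouse, so no human sequence or position is printed.

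Of 33297 probe sets, 19460 had 1 symbol in the platform annotation. The brightest probe set per gene was kept. Groups came from the sample titles. BL-8040 and control (3 arrays each) were compared by limma 3.58.1 in R 4.3.3 (lmFit, eBayes, two-sided), with Benjamini-Hochberg adjustment over 18417 genes; a gene passed at an adjusted p under 0.05. The test was checked on simulated data. Precision is limited by the number of arrays: the median gene's 95% interval reached 0.197 log2 units to each side. The design text names mice; where arrays shared a source, p-values would cover technical spread only.

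The genes and lists were chosen with earlier results of these data known. Named were all 9 measured genes, the 2 genes of smallest p per direction in each list (every gene in lists of 3) and, for 3 genes, the 3 most alike. The number 1 to 3 in the titles was not used to pair the arrays in the main test. Same-numbered deviations from the group means correlated at -0.04, 0.02 and 0.08, and differently numbered ones at -0.09 to 0.07. With 3 arrays a group these values cannot exclude a pairing.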

Additional observations from a re-analysis of the deposited data

How the results depend on the processing

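Alternatives were quantile normalization, median centring, 2 filters on dim genes (which left out CCND2), the mean of probe sets, a threshold of 0.1, robust moderation along a trend, a replicate block, weights per array, and each array left out. A second probe set could not be tried, since each gene had 1. In limma, 0 of 9 genes and 0 of 18417 passed under every one of these. Of 124 differences of the 9 genes under alternatives, 116 kept their direction. Many of the 116 could not have turned. The filters, the mean of probe sets, the moderation along a trend and the replicate block left each difference equal to that of the main fit. Median centring left the differences almost unchanged. Only quantile normalization, array weights and the fits with 1 array left out could show how stable a direction was. The 8 that turned were all small: CDK4 was 0.0050 with array weights and, with 1 array left out, lay between -0.032 and 0.0206, above 0 without BL-8040 replicate 3, control replicate 1 or control replicate 2. With 1 array left out, CDK6 lay between -0.045 and 0.0211 (above 0 without BL-8040 replicate 1 or control replicate 1), CDKN1A between -0.16 and 0.0461 (above 0 without BL-8040 replicate 1), and RB1 between -0.0081 (without control replicate 3) and 0.0902. With the replicate number as a block, 0 of the 9 genes had an unadjusted limma p under 0.05 (CDKN2D 0.0756) and 6 of the 70 others, against 1 and 4. Over all genes the block gave 1488, against 1422 in the main fit. The block changed no call. Median centring also gave 0 of the 9, and moderation along a trend gave CCND3 (0.0472) in place of CDKN2D (0.0519). Array weights gave 8 of the 70, and 1707 of all 18417 genes. Refits on the genes that passed the filters on dim signal gave 714 and 727 genes at an unadjusted p under 0.05, with fewer genes tested, against 1422. With 1 array left out, these limma counts lay between 0 and 1 of the 9 (CDKN2D without control replicate 1, but CCND3 without BL-8040 replicate 2), between 1 (without control replicate 3) and 9 (without control replicate 1) of the 70, and between 905 (without control replicate 2) and 1838 (without control replicate 1) of all genes. The cause of these shifts was not tested.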
